A study of Mus musculus with 16 samples.

Results

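DNA replication and S-phase genes were followed in CD4+CD8+ (double-positive) thymocytes of fetal thymic organ culture, in which lobes of fetal thymus are kept in a dish. The list held 42 genes, from origin licensing to chromatin assembly, chosen by name for their roles, with earlier results of these data known. A gene was taken as measured where a probe set naming it and no other gene lay on the array, and its brightest probe set over all 16 arrays stood for it. This gave 40 genes of the 8251 that the array names by single-gene probe sets. Pole and Tyms had no such probe set and were not analysed here. BDC2.5 mice are transgenic for the receptor of a CD4 T cell clone able to cause diabetes, here on NOD, a strain that develops autoimmune diabetes, or on B6g7, a C57BL/6 background with the MHC haplotype of NOD. The 6 groups were BDC2.5/NOD cultures given peptide for 16 h, BDC2.5/NOD cultures with no peptide, wild-type NOD, BDC2.5/B6g7 cultures given peptide for 16 h, BDC2.5/B6g7 cultures with no peptide, and wild-type B6g7, with n = 3 in each BDC2.5 group and n = 2 in each wild-type group. The labels give neither the peptide's name, its dose nor the gestational age, and do not tell if peptide was added to wild-type cultures. They do not say that the arrays of a group came from separate animals or cultures, so p-values measure the spread between these arrays, which may be technical.

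Before S phase, the origin recognition complex and Cdc6 load rings of the Mcm2 to Mcm7 proteins onto origins, and geminin (Gmnn) blocks a second loading. In S phase Cdc45 joins the ring as a part of the moving helicase. Primase and DNA polymerases copy the strands on the sliding clamp Pcna, and Fen1 and Lig1 finish the lagging strand. Ribonucleotide reductase and thymidine kinase supply deoxynucleotides, and chromatin assembly factor, Dnmt1 and Uhrf1 restore histones and DNA methylation behind the fork. Many of these genes are targets of E2F transcription factors, which drive entry into S phase. Double-positive thymocytes arise from dividing precursors and leave the cycle as small resting cells before selection.

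The promoters of the listed genes were read from the RefSeq table of build GRCm38.p6, in which 45 promoters of 36 of the 40 genes were matched, each with 250 bases before and 50 bases after the transcription start. The E2F motif was searched as TTTCCCGC, TTTCGCGC, TTTGCCGC and TTTGGCGC on both strands, and copies that overlap were counted singly. It was present in 14 of 45 promoters (31.1%), against 744 of 32851 promoters in the whole table (2.27%). The genes holding it were Cdc6, Orc1, Mcm3, Mcm5, Mcm6, Mcm7, Pola1, Pold1, Pclaf, Rfc3, Lig1, Uhrf1, Dnmt1 and Ezh2. CCAAT was found on either strand in 64.4% of the 45 promoters and 37.4% of all promoters, and the CHR motif (TTTGAA or TTTAAA, the second of which is its own complement) in 26.7% and 27.6%. In a list of mitosis genes set beside them, E2F was in 2.38% of 42 promoters, CCAAT in 78.6% and CHR in 76.2%. A match of letters is a description and no evidence of binding, and no binding was measured. The 60-base stretches below show the E2F motif, in capitals, in 8 of these 14 genes, chosen among those with array values given further on, each written 5′ to 3′ along the gene's strand.
Orc1: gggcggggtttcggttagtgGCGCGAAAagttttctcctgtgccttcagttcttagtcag
Mcm5: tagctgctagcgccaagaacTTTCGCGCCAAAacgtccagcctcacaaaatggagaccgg
Mcm6: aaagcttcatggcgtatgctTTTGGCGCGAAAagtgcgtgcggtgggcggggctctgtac
Mcm7: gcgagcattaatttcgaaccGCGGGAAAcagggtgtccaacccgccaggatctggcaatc
Pola1: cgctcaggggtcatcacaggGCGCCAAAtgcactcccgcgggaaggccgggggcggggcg
Lig1: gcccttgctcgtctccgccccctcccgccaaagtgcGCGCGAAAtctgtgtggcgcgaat
Dnmt1: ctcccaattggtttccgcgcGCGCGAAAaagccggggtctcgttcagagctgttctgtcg
Ezh2: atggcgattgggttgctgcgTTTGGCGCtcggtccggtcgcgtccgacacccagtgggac
These stretches lie at chr4:108579407-108579466 (plus strand), chr8:75109336-75109395 (plus strand), chr1:128359776-128359835 (minus strand) and chr5:138172009-138172068 (minus strand) for the licensing and helicase genes. The others lie at chrX:93632254-93632313 (minus strand), chr7:13278816-13278875 (plus strand), chr9:20952803-20952862 (minus strand) and chr6:47594988-47595047 (minus strand). In Mcm5 and Mcm6 a forward and a reverse copy overlap and run together in the capitals. The first copy starts 219 bases before the start in Dnmt1, the farthest of the 8, and 26 bases after it in Lig1.

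The values are the intensities deposited by the authors, on a linear scale, with no account of how the arrays were brought to it in the labels. Median intensity per array was 54.7 to 59.1. Precision is limited by the number of arrays. Of 13 double-positive markers, 9 were measured and all 9, among them Cd8a, Rag1, Dntt and Satb1, lay above the median intensity of the probe sets. Their summed intensity was 8961 to 9673 in BDC2.5/NOD with peptide, 9623 to 14658 without it and 12279.8 to 17480 in wild-type NOD. In BDC2.5/B6g7 the sums were 6964 to 11476 with peptide and 11306 to 13304 without it, and 15548 to 19259.6 in wild-type B6g7. The 11 myeloid and dendritic markers summed to 536 to 597 with peptide and 545 to 643 without it in BDC2.5/NOD, against 1079.9 to 1519 and 701 to 1063 in BDC2.5/B6g7, and 3 of the 11 lay above the median. Of the 11, Apoe averaged 121 with peptide and 137 without it in NOD, and 649 and 439 in B6g7, while Csf1r was at 39.6 and 39.8 in NOD and 39.96 and 40.3 in B6g7. Lyz2 averaged 21.4 and 28.6 in NOD and 43.7 and 26.3 in B6g7, and Tyrobp 34.9 and 36.9 in NOD and 56.2 and 36.7 in B6g7. With peptide in B6g7, C1qa, C1qc and Cd68 were higher by 0.21 to 0.40 on the log2 scale and C1qb lower (-0.20). Itgam, Itgax and Fcer1g differed there by -0.007 to 0.077. The 8 early and double-negative markers summed to 1357 to 2713 with peptide and 1873 to 2896 without it in BDC2.5/NOD, and to 1405 to 2483 and 1983 to 2998 in BDC2.5/B6g7. These sums mostly follow Notch1, which averaged 1508 and 1819 in NOD and 1439 and 1910 in B6g7. With peptide Ptcra (-0.36 in NOD, -0.60 in B6g7), Notch1, Notch3 and Hes1 were lower in both strains. Il7r (0.75 and 0.81), Kit and Cd44 were higher in both, and Il2ra differed in sign. Il7r, Kit, Cd44 and Il2ra lay below the median. B cell, thymic epithelial, mesenchymal and erythroid sums overlapped between peptide and no peptide in both strains. The part of these shifts in the results was not tested. A set of 6 arrays stood apart, those numbered 3 in the BDC2.5 groups and 2 in the wild-type groups. Their 3′ probe set of beta-actin exceeded the 5′ one by 1.36 to 1.96 on the log2 scale (median 1.76), against 2.24 to 3.27 (median 2.64) in the other 10, a measure of how evenly the transcript was labelled. The 6 were picked by the beta-actin 5′ signal in earlier results of these data, so this gap is not independent of that choice. The same measure for Gapdh overlapped, at 1.52 to 2.32 on the 6 and 2.15 to 2.97 on the other 10. Each group held 1 of the 6 arrays.

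The replication genes were well above the typical intensity of the array. Mean intensity was over the median of all probe sets for 37 of the 40, the exceptions being Orc1 (27.9), Fen1 (49.2) and Mcm6 (13.4). Mcm6, a ring subunit of the helicase, lay at percentile 8.94 and its probe set was dropped by a filter on dim values that kept 9316 probe sets and 39 of the genes. Intensities of different probe sets are not compared here, since each has its own probes. Spread within groups was larger than usual: the SD of log2 intensity within groups had a median of 0.31 over the 40 genes, against 0.18 over all probe sets. It was highest for Slbp (1.20), the histone mRNA binding protein, Rrm2 (1.02), the regulated subunit of ribonucleotide reductase, Uhrf1 (0.99) and Mcm4 (0.94), and lowest for Mcm6 (0.11) and Dnmt1 (0.14).

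**Figure D1:**
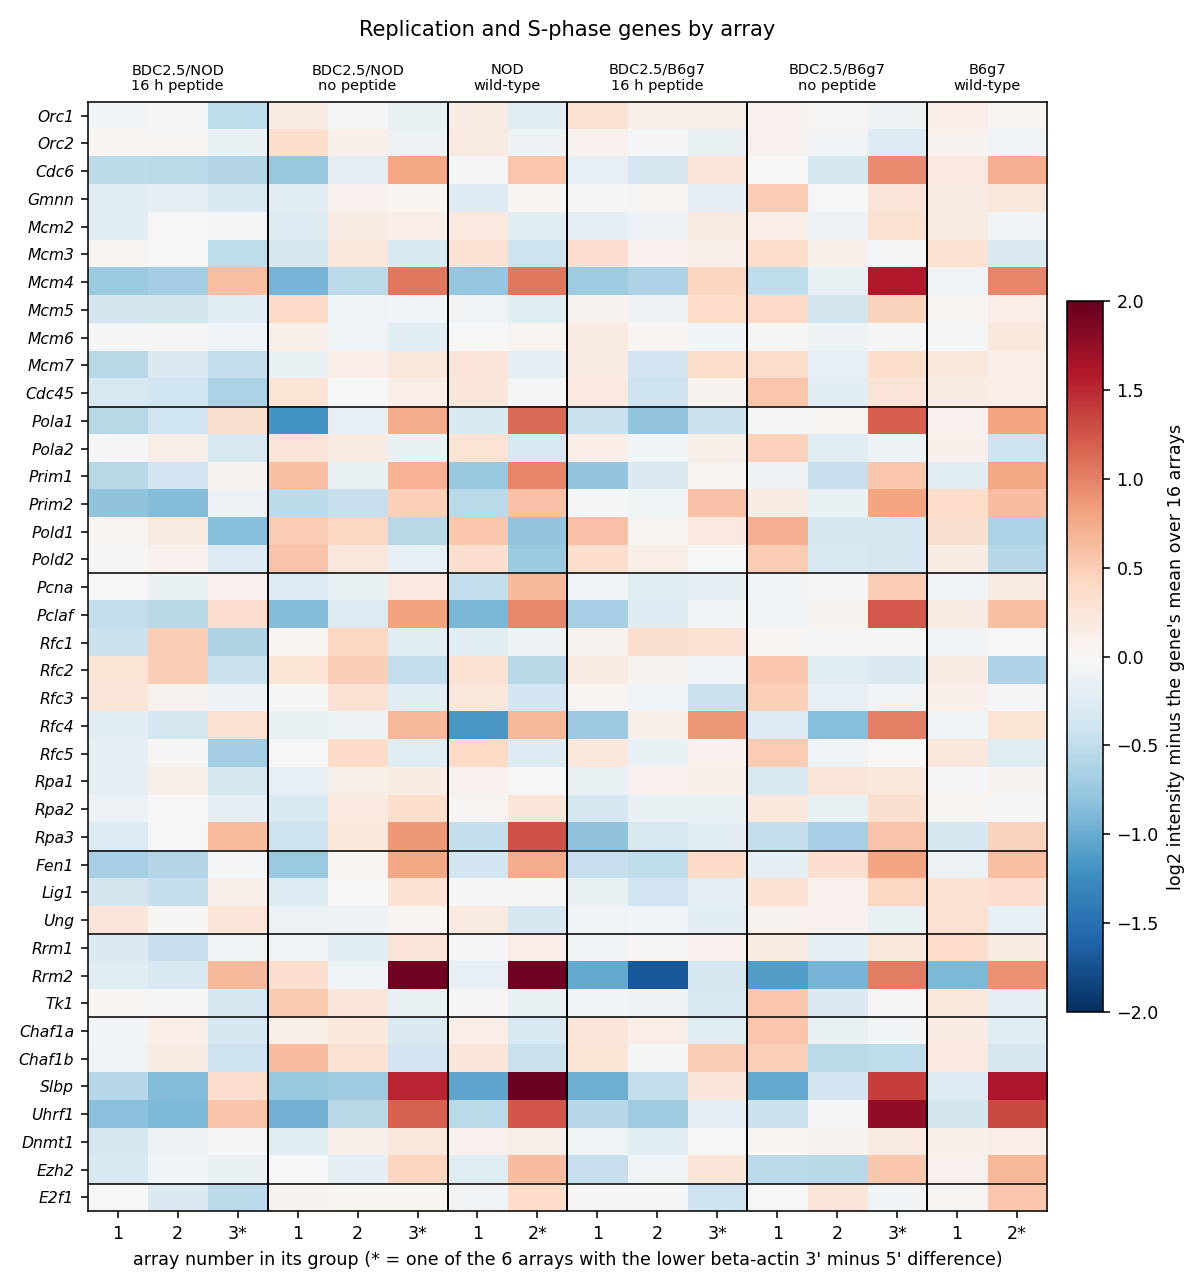
Log2 intensity of each of the 40 genes on each of the 16 arrays, minus the gene's mean over the arrays, in rows ordered by role (horizontal lines) and columns ordered by group (vertical lines). Stars mark the 6 arrays with the lower beta-actin 3′ minus 5′ difference, on which Slbp, Rrm2, Uhrf1 and Mcm4 were higher within their groups by 1.51 to 1.83.

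Much of that spread lay between the 6 arrays and the other 10 of the same groups. Within groups, Slbp was higher on the 6 arrays by 1.83 on the log2 scale, Rrm2 by 1.59, Uhrf1 by 1.53 and Mcm4 by 1.51. Rfc4 of the clamp loader (1.05), Pclaf, the Pcna-associated factor (1.02), Pola1 (0.94) and Rpa3 (0.94) followed. At the other end stood Pold1 (-0.79) and Pold2 (-0.52), which encode the catalytic and a second subunit of polymerase delta, and Rfc2 (-0.64). In all, 23 genes were higher and 17 lower on the 6 arrays, with a median of 0.085 against -0.065 over all probe sets. Subunits of 1 complex thus stood on both sides, as Rfc4 and Rfc2 did, and Mcm4 and Mcm3 (-0.39). Each group held 1 of the 6, which balances them in comparisons of peptide and of strain. The transgene comparisons were not, with 1 of 3 BDC2.5 arrays against 1 of 2 wild-type arrays.

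**Figure D2:**
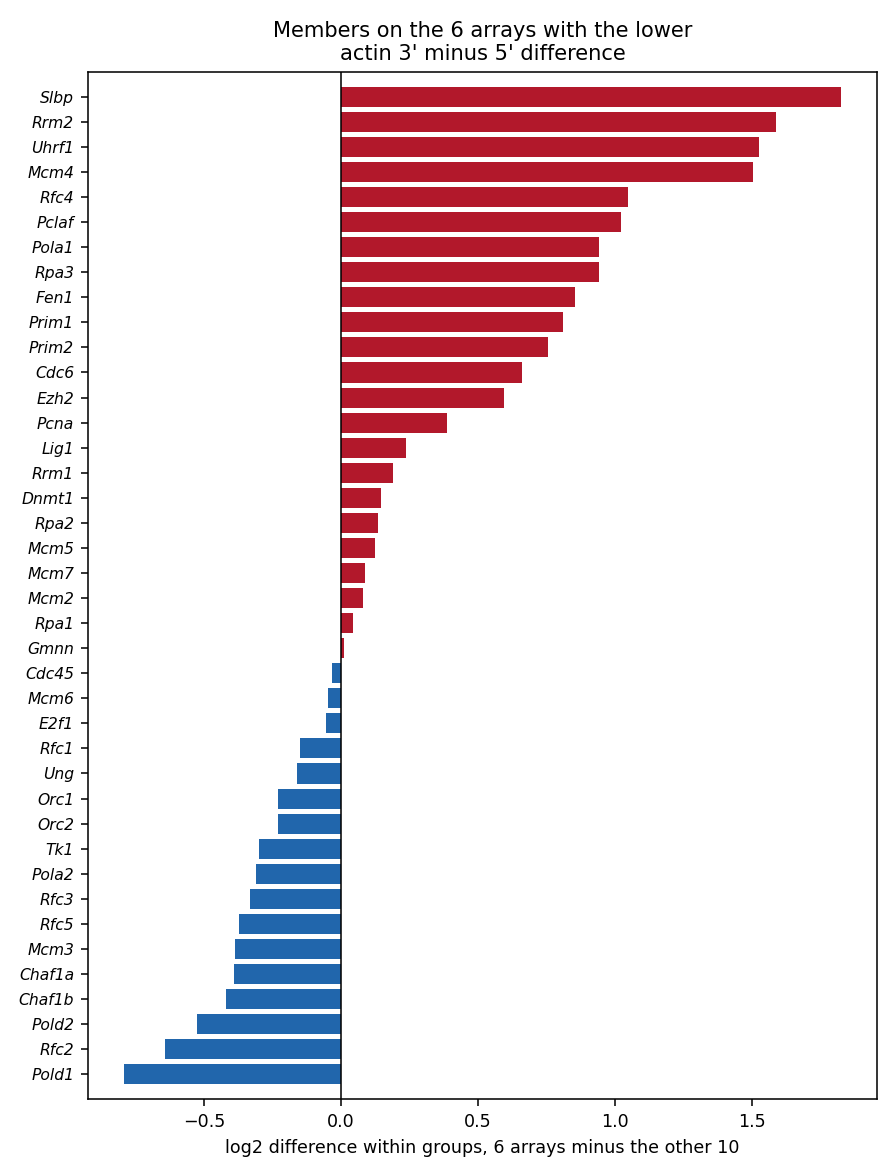
Bars give, for each of the 40 genes, the log2 difference within groups between the 6 arrays with the lower beta-actin 3′ minus 5′ difference and the other 10, with genes ordered by it. Slbp stood at 1.83 and Pold1 at -0.79, with 23 genes above 0 and 17 below it.

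With 16 h of peptide, most replication genes read lower, by amounts that no single gene carried past the test. Averaged over both strains, 35 of 40 genes were lower and 5 higher, with a median log2 difference of -0.19, against -0.02 over all probe sets, of which 57.6% were lower. In BDC2.5/NOD 35 of 40 were lower (median -0.24), and in BDC2.5/B6g7 28 of 40 (median -0.14), beside 58.0% and 52.0% of all probe sets. The B6g7 median rested on single arrays: it was -0.29 without no-peptide array 2, -0.20 without peptide array 3, -0.09 without no-peptide array 1 and -0.05 without no-peptide array 3. The NOD median was -0.11 without no-peptide array 3. The 40 genes were read on the same arrays, so their count is not a count of independent results. As a level per array, the median over the genes of log2 intensity minus each gene's mean was taken. In NOD this level was -0.23, -0.08 and -0.14 with peptide and -0.09, 0.04 and 0.14 without it. In B6g7 it was -0.08, -0.10 and 0.06 with peptide and 0.08, -0.14 and 0.26 without it. The levels overlapped in both strains. These are bulk samples, in which fewer cells in S phase and less of each RNA per cell cannot be told apart. Calls were made in limma at an adjusted p under 0.05, with Benjamini-Hochberg adjustment over 12422 probe sets. By that rule limma called 0 of the 40 genes in either strain or in the mean, where it called 0%, 0.00805% and 0.0242% of all probe sets in NOD, B6g7 and the mean. By the brightest probe sets, to which the counts that follow also refer, the lowest adjusted p of a listed gene was 0.998 in the mean and 1 in each strain. At an unadjusted p under 0.05, 2 genes were lower in the mean (Cdc45 and Lig1), 2 in NOD (Cdc45 and Mcm7) and 1 in B6g7 (Lig1), and 0 were higher in any of them (higher probe sets 1.87%, 0.636% and 2.26% of all). Lower probe sets at that level made up 1.71%, 1.03% and 1.14% of all in the mean, NOD and B6g7.

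A term for the 6 arrays in the fit, which leaves the differences as they are and takes that spread out of the error, changed the count at an unadjusted p under 0.05 and not the calls. In the mean response 14 genes then passed at that level, all lower, where 3.99% of all probe sets did so. They were Rrm2 (-0.69), Uhrf1 (-0.60), Prim1 (-0.50), Pola1 (-0.49), Fen1 (-0.48), Pclaf (-0.43), Cdc45 (-0.41), Cdc6 (-0.39), Mcm4 (-0.38), Lig1 (-0.38), Mcm7 (-0.32), Prim2 (-0.27), Rpa2 (-0.26) and Gmnn (-0.25), in log2 differences with SEs of 0.10 to 0.19. The lowest adjusted p among them was 0.254. In NOD 6 genes and in B6g7 7 genes passed unadjusted, all lower, against 2.13% and 3.58% of all probe sets. With the replicate number as a block, 10 genes passed unadjusted in the mean (3.91% of all probe sets), all lower, and the lowest adjusted p was 0.315. Without the 6 arrays 31 of 40 genes were lower in the mean (median -0.12), and within the 6 arrays alone, where no test was possible, 32 of 40 were (median -0.29). Several of the 14 were far smaller without the 6 arrays than within them. Cdc6 gave -0.07 without and -1.02 within, Rrm2 -0.36 and -1.34, Uhrf1 -0.26 and -1.29, and Pola1 -0.22 and -1.03. Pclaf gave -0.20 and -0.88, and Mcm4 -0.17 and -0.80. Cdc45 (-0.38 and -0.48), Lig1 (-0.36 and -0.40), Mcm7 (-0.31 and -0.34) and Prim1 (-0.47 and -0.55) were closer. In the mean response 8 of 40 genes had another sign without the 6 arrays, in NOD 7 and in B6g7 5.

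Of the licensing and helicase genes, 9 of 11 were lower in the mean (median -0.23), 10 of 11 in NOD and 7 of 11 in B6g7. Cdc45, a part of the moving helicase, had intensities of 102, 95.9 and 82.0 with peptide and 153, 126 and 139.9 without peptide in BDC2.5/NOD. The groups did not overlap, and every peptide array lay below every array without it. In BDC2.5/B6g7 Cdc45 read 145, 95.6 and 134 with peptide and 187, 109 and 152 without peptide, which overlapped, although each of the 3 same-numbered pairs was lower with peptide. The log2 difference was -0.58 ± 0.21 in NOD, -0.24 ± 0.21 in B6g7 and -0.41 ± 0.15 in the mean, where ± gives the standard error from limma. Mcm7, a ring subunit, read 246, 296 and 260.3 with peptide and 329, 397 and 424 without peptide in NOD, again without overlap (-0.52 ± 0.22). Its B6g7 values of 407, 279 and 464 with peptide and 461, 322 and 459.7 without peptide overlapped (-0.12 ± 0.22). Mcm5, another ring subunit, gave 342, 344 and 379 with peptide and 581, 424 and 427 without peptide in NOD, and its groups did not overlap there (-0.41 ± 0.22). In B6g7 the Mcm5 groups overlapped at 465, 413 and 571 with peptide and 576, 344 and 602 without peptide (-0.04 ± 0.22). Mcm2, a ring subunit and common marker of cycling cells, read 248, 287 and 285 with peptide and 243, 322 and 318 without peptide in NOD. The Mcm2 values in B6g7 were 252, 268 and 329 with peptide and 316, 268 and 357 without peptide. They overlapped in both strains (-0.10 ± 0.19 and -0.15 ± 0.19).

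Among the other licensing genes, Orc1, Orc2 and Mcm3 differed in sign between strains, and Cdc6, geminin and Mcm4 stood below 0 in both. Orc1, the origin recognition subunit that binds chromatin anew in each cycle, read 26.6, 27.2 and 19.5 with peptide and 30.9, 27.3 and 25 without peptide in NOD, which overlapped (-0.19 ± 0.14). In B6g7 its values of 34.3, 29.6 and 30.1 with peptide and 29.3, 28.1 and 25.7 without peptide did not overlap and lay higher with peptide (0.17 ± 0.14), although these intensities are below the median of the array. Orc2 gave -0.13 in NOD and 0.05 in B6g7. Cdc6, the loader, gave -0.50 and -0.28, with a within-group SD of 0.51, and geminin gave -0.20 and -0.30. Mcm4 gave -0.14 and -0.62, and Mcm3 -0.02 and 0.03. Mcm6 read 13.1, 13.7 and 12.6 with peptide and 14.4, 12.8 and 11.5 without peptide in NOD. The Mcm6 values in B6g7 were 15.2, 13.8 and 12.9 with peptide and 13.7, 12.6 and 13.1 without peptide. These are too dim for a direction, with differences of 0.03 ± 0.09 and 0.09 ± 0.09.

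The 6 polymerase and primase genes were all lower in the mean (median -0.17), 6 of 6 in NOD and 3 of 6 in B6g7. Pola1, the catalytic subunit of the polymerase that starts each new strand, read 65.3, 51.5 and 65.7 with peptide and 87.9, 92.9 and 204 without peptide in B6g7, where the groups did not overlap (-0.97 ± 0.48). The B6g7 difference was -0.64 without the 6 arrays, -0.58 without no-peptide array 3 and -1.19 without no-peptide array 1. The NOD values of Pola1, 60.8, 67.3 and 111 with peptide and 39.1, 79.6 and 149 without peptide, overlapped and gave -0.01 ± 0.48. Prim1, the catalytic subunit of primase, read 136, 153 and 208 with peptide and 301, 178 and 320.5 without peptide in NOD. The Prim1 values in B6g7 were 115, 163 and 205 with peptide and 185, 144 and 287 without peptide, with overlap in both. Its differences were -0.67 ± 0.43 and -0.33 ± 0.43, and -0.50 ± 0.30 in the mean. Prim2, the large primase subunit, gave -0.43 and -0.12. Pola2, Pold1 and Pold2 stood below 0 in NOD (-0.17, -0.33 and -0.26) and above it in B6g7 (0.03, 0.27 and 0.21), none of them past the test. The only Pold2 probe set has the suffix _r_at, given where the usual rules of probe choice were dropped. A dimmer Pold1 probe set gave -0.17 in NOD and -0.07 in B6g7, lower in both.

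In the clamp, clamp loader and single-strand binding group, 9 of 10 were lower in the mean (median -0.12), and 7 of 10 in each strain. Pcna, the sliding clamp, read 1619, 1461 and 1715 with peptide and 1335, 1472 and 1849.6 without peptide in NOD, where the groups overlapped (0.05 ± 0.26). In B6g7 its values of 1512, 1363 and 1423 with peptide and 1526, 1625 and 2289.9 without peptide did not overlap and lay lower with peptide (-0.32 ± 0.26). The mean over strains was -0.13 ± 0.18, and it was 0.00022 without the 6 arrays. Rpa2, a subunit of the single-strand binding complex, read 150.3, 163 and 143 with peptide and 132, 186 and 208 without peptide in NOD. The Rpa2 values in B6g7 were 128, 148 and 147 with peptide and 188, 147 and 203 without peptide, and overlapped in both. Its differences were -0.18 ± 0.18 and -0.34 ± 0.18. Rpa1 and Rpa3, the other subunits, gave -0.10 and -0.18 in the mean, and Pclaf gave -0.43. The 5 clamp loader genes ranged in the mean from -0.21 for Rfc5 to 0.03 for Rfc2. Rfc1, the large loader subunit, gave -0.26 in NOD and 0.22 in B6g7, where its groups did not overlap.

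Lig1, the ligase that joins Okazaki fragments, was among the lower genes of both strains. It read 182, 153 and 174 with peptide and 243, 211 and 266 without peptide in B6g7, with no overlap (-0.50 ± 0.19), and 154, 144 and 212 with peptide and 164, 201 and 243 without peptide in NOD, with overlap (-0.25 ± 0.19). Each same-numbered pair was lower with peptide in both strains, and the mean over strains was -0.38 ± 0.13. Fen1, the flap endonuclease of the same step, chosen after its values were seen, read 29.0, 30.8 and 45.3 with peptide and 27.6, 47.5 and 78.4 without peptide in NOD. The Fen1 values in B6g7 were 33.4, 32.4 and 59.9 with peptide and 40.2, 58.2 and 79.6 without peptide. These overlapped, with 3 of 3 pairs lower in B6g7, and the differences were -0.45 ± 0.41 and -0.51 ± 0.41. Ung, the glycosylase that removes uracil from DNA, read higher in NOD, with 313, 265 and 312 with peptide and 241, 244 and 267 without peptide, higher in 3 of 3 same-numbered pairs but overlapping (0.24 ± 0.18). In B6g7 it read 248, 250.1 and 222 with peptide and 273, 278 and 235 without peptide, with overlap and 3 of 3 pairs lower (-0.12 ± 0.18). This probe set of Ung has the suffix _r_at, given where the usual rules of probe choice were dropped. A dimmer Ung probe set without that suffix gave -0.08 ± 0.27 in NOD and -0.39 ± 0.27 in B6g7, lower in both.

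All 3 measured genes of deoxynucleotide synthesis were lower in each strain, by values that did not pass the test. Rrm2 read 255, 245 and 472 with peptide and 380.2, 283 and 1160.3 without peptide in NOD. The Rrm2 values in B6g7 were 148, 93.3 and 235 with peptide and 138, 158 and 616 without peptide. The third value of each group comes from the 6 arrays, and it was the highest of its group each time. The fit gave -0.69 ± 0.73 and -0.69 ± 0.73, with a wide SE from the spread between the arrays of a group. Rrm1, the large subunit of the reductase, gave -0.27 and -0.06. Tk1, the thymidine kinase of S phase, read 440.4, 439 and 342 with peptide and 618, 509 and 389 without peptide in NOD. The Tk1 values in B6g7 were 406, 401 and 343 with peptide and 627, 351 and 436 without peptide, and overlapped in both (-0.30 ± 0.24 and -0.26 ± 0.24).

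Among the 6 genes of chromatin behind the fork, 5 were lower in the mean (median -0.14). Dnmt1, the maintenance DNA methyltransferase, read 203, 240.1 and 252 with peptide and 219.9, 279 and 304 without peptide in NOD, which overlapped, and 244, 224 and 258 with peptide and 266, 272 and 294 without peptide in B6g7, which did not. Its difference was -0.20 ± 0.16 in NOD and -0.20 ± 0.16 in B6g7. Uhrf1, which brings Dnmt1 to half-methylated DNA and was chosen after its values were seen, read 107, 102 and 282 with peptide and 97.5, 130.01 and 431 without peptide in NOD. The Uhrf1 values in B6g7 were 129, 117 and 166 with peptide and 142, 187 and 651 without peptide, with differences of -0.27 ± 0.70 and -0.93 ± 0.70. Chaf1b, a subunit of chromatin assembly factor, read 80.0, 93.2 and 62.7 with peptide and 129, 103 and 64.0 without peptide in NOD. The Chaf1b values in B6g7 were 101, 81.5 and 118 with peptide and 116, 57.3 and 59.1 without peptide. It overlapped in both, and stood at -0.29 ± 0.32 in NOD and 0.43 ± 0.32 in B6g7. The B6g7 value was 0.15 without the 6 arrays and 0.99 within them, and 0.76 without no-peptide array 1, against 0.26 without no-peptide array 2. Chaf1a, the large subunit, gave -0.10 in NOD and -0.07 in B6g7. Slbp gave -0.38 and -0.40, which was 0.02 and -0.04 without the 6 arrays and -1.18 and -1.14 within them. Ezh2, the H3K27 methyltransferase, gave -0.25 and 0.09, and -0.09 and 0.27 without them.

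E2f1, the transcription factor of the list, read 112, 92.8 and 78.5 with peptide and 119, 116 and 116 without peptide in NOD, without overlap (-0.32 ± 0.19). In B6g7 it read 114, 111 and 84.8 with peptide and 112, 134 and 109 without peptide, with overlap (-0.20 ± 0.19). The brightest E2f1 probe set has the suffix _f_at, given to probe sets that may read related sequences. A dimmer one, named after its values were seen, read 35.9, 34.1 and 36.8 with peptide and 41.5, 43.8 and 48.4 without it in NOD. In B6g7 that probe set read 36.9, 37.2 and 28.6 with peptide and 47.4, 44.7 and 52.0 without it. It gave -0.41 ± 0.08 in the mean (limma adjusted p = 0.255), also short of the threshold. Of the 14 genes with several probe sets, 2 had probe sets of opposite sign in the mean response and 4 in each strain. These were Orc2 and Ung in the mean, Orc2, Mcm3, Dnmt1 and Ung in NOD, and Mcm5, Pold1, Rfc1 and Tk1 in B6g7.

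**Figure D3:**
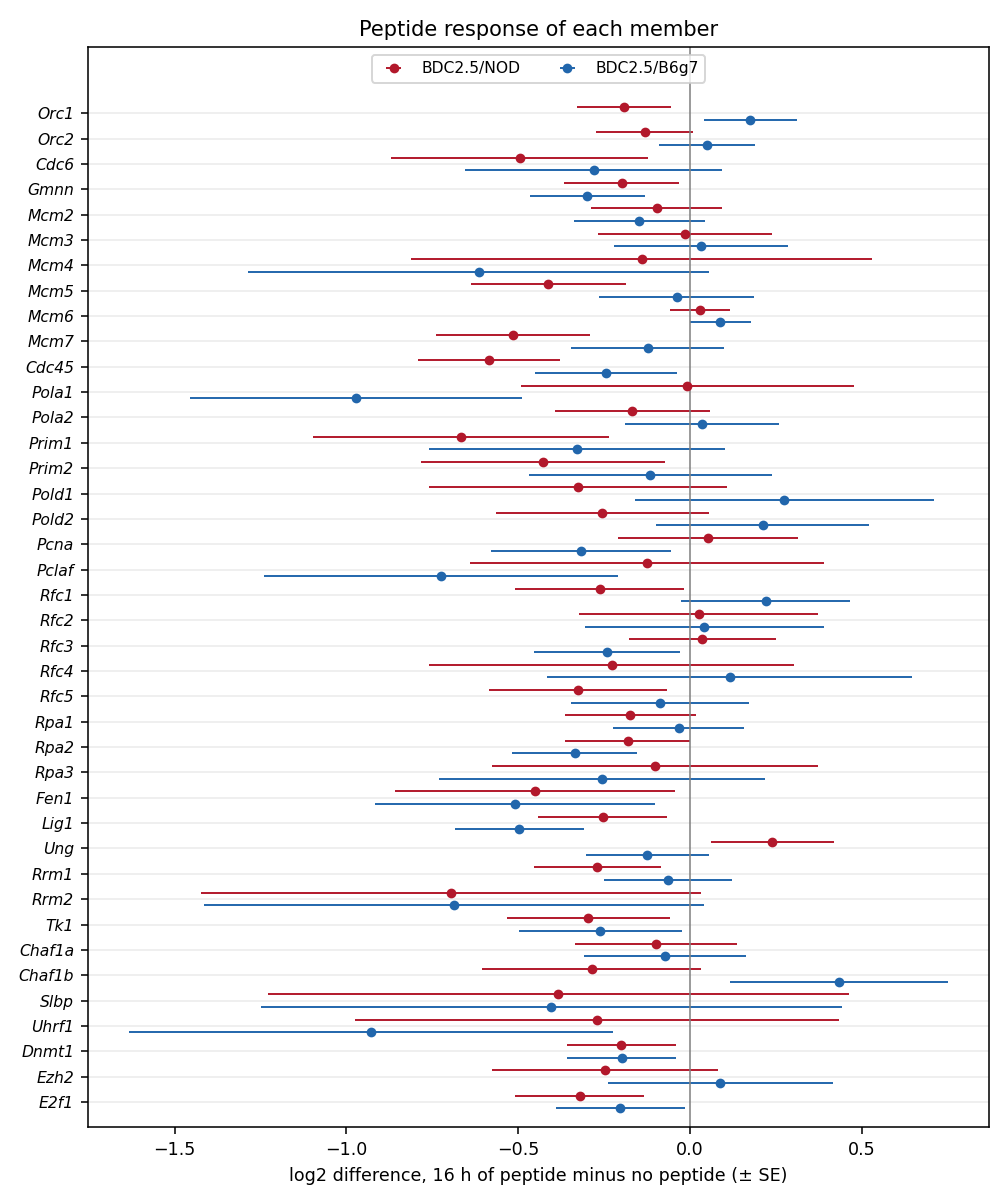
Log2 difference between 16 h of peptide and no peptide (points) with its standard error (lines) for each of the 40 genes, in BDC2.5/NOD and BDC2.5/B6g7 cells. In NOD 35 points lie below 0 and in B6g7 28, and no gene passed the test.

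Arrays that did not overlap between peptide and no peptide were counted for each strain. In NOD these genes were Mcm5, Mcm7, Cdc45 and E2f1, all lower, which is 4 of 40 where 3.20% of all probe sets did so, and 0 genes were higher (2.33% of all). In B6g7 Pola1, Pcna, Lig1 and Dnmt1 were lower (3.03% of all) and Orc1 and Rfc1 higher (3.48% of all). No gene was in both lower sets. By same-numbered pairs, a pairing that is assumed, 20 genes were lower in 3 of 3 pairs in NOD (17.6% of all probe sets) and 1 higher (10.6%). In B6g7 10 were lower in 3 of 3 pairs (15.8%) and 3 higher (14.3%). By their brightest probe sets, Cdc45, Lig1 and Dnmt1 were lower in every pair of both strains. A dimmer Dnmt1 probe set gave 0.04 ± 0.18 in NOD. Whether the response differed between strains was tested by the difference of the differences, NOD minus B6g7. limma called 0 genes, 0 had an unadjusted p under 0.05 (all probe sets 1.18%), and the lowest adjusted p was 1. Chaf1b gave -0.72 ± 0.45, Orc1 -0.37 ± 0.19, Pola1 0.96 ± 0.68 and Ung 0.36 ± 0.25. The sets named for each strain are thus not shown to differ between strains. In all, 26 of the 40 differences were negative (median -0.05, against -0.03 over all probe sets).

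The strain comparisons set NOD beside B6g7 in 3 states: BDC2.5 without peptide, BDC2.5 with 16 h of peptide, and wild-type. They share arrays with the peptide and transgene comparisons. limma called 0 of the 40 genes in each state, by their brightest probe sets, where it called 0.266%, 0.491% and 0.0886% of all probe sets. Without peptide 26 of 40 were lower in NOD (median -0.06), with peptide 25 (median -0.11) and in wild-type cells 29 (median -0.07), against medians of 0.03, 0.01 and -0.03 over all probe sets. At an unadjusted p under 0.05 there were 0 genes without peptide (all probe sets 3.45%), 0 in wild-type cells (2.09%) and 2 with peptide, both lower (2.93%, and 2.75% for higher). These were Orc1 and Mcm7, and the lowest adjusted p was 0.639. The licensing and helicase genes were lower in NOD in 10 of 11 cases without peptide, 9 of 11 with it and 10 of 11 in wild-type cells. Of all probe sets 39.6%, 48.2% and 58.7% were lower in these states. Several of these differences were small. Without the 6 arrays the sign turned for Orc1, Mcm5 and Mcm6 without peptide and for Mcm2 and Mcm4 with it. In wild-type cells it turned for Orc1, Mcm2, Mcm6, Mcm7 and Cdc45.

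Rrm2 had the widest strain difference of the list in each state, with NOD higher. Prim2, lower in NOD, came next with peptide and in wild-type cells, while without peptide Pola1, Uhrf1, Pclaf and Mcm4 also exceeded it in size. Rrm2 read 255, 245 and 472 in NOD and 148, 93.3 and 235 in B6g7 with peptide. Without peptide it read 380.2, 283 and 1160.3 in NOD and 138, 158 and 616 in B6g7, and in wild-type cells 271 and 1164 in NOD and 163 and 569 in B6g7. In each state the NOD array exceeded the B6g7 array of the same number. The log2 difference was 1.06 ± 0.73 with peptide, 1.07 ± 0.73 without it and 0.88 ± 0.89 in wild-type cells. The wild-type value was -0.02 without B6g7 array 1 and -0.17 without NOD array 2. Prim2 was chosen after its values were seen. It read 55.6, 53.4 and 89.4 in NOD and 94.7, 91.2 and 147 in B6g7 with peptide, where the groups did not overlap. Without peptide it read 67.9, 70.7 and 135 in NOD and 108, 88.2 and 169 in B6g7, and in wild-type cells 66.8 and 145 in NOD and 125 and 149 in B6g7. Each NOD array lay below the B6g7 array of the same number, and the differences were -0.75 ± 0.35, -0.44 ± 0.35 and -0.47 ± 0.43.

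The strain difference averaged over the 3 states was added after the data had been seen, and its calls are given on that footing. The plain fit called 0 of the 40 genes in this average (Rrm2 1.004 ± 0.45, adjusted p = 0.782; Prim2 -0.55 ± 0.22, adjusted p = 0.605), where 1.30% of all probe sets were called. With the term for the 6 arrays both were called, Rrm2 higher in NOD at 1.004 ± 0.16 (adjusted p = 0.00183) and Prim2 lower at -0.55 ± 0.09 (adjusted p = 0.00235), beside 2.53% of all probe sets. Without the 6 arrays Rrm2 gave 0.99 (adjusted p = 0.0172) and Prim2 -0.72 (adjusted p = 0.0123), beside 1.18% of all. With the replicate block Prim2 was called (adjusted p = 0.0478) and Rrm2 was not (adjusted p = 0.169), beside 2.18% of all. In single states the term called 1 gene in 1 state, Prim2 with peptide (-0.75, adjusted p = 0.0208, beside 1.16% of all).

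Single arrays of the other genes did not separate the strains alike in the 3 states. With peptide, Ung read 313, 265 and 312 in NOD and 248, 250.1 and 222 in B6g7, without overlap (0.30 ± 0.18). The dimmer Ung probe set gave 0.01 ± 0.27 in this state, with overlap. Orc1 read 26.6, 27.2 and 19.5 in NOD and 34.3, 29.6 and 30.1 in B6g7, also without overlap and lower in NOD (-0.37 ± 0.14). Mcm7 overlapped at 246, 296 and 260.3 in NOD and 407, 279 and 464 in B6g7 (-0.49 ± 0.22). In this state 5 genes lay lower in NOD without overlap (Orc1, Cdc6, Mcm3, Mcm5 and Prim2, where 5.39% of all probe sets did) and Ung and Rrm2 higher (6.45%). Without peptide 0 genes separated in either direction (lower 2.37%, higher 3.24% of all). The genes with the largest t values there were Rrm2, Orc2, geminin and Lig1. Orc2 read 74.7, 62.8 and 54.5 in NOD and 62.4, 55.8 and 48.9 in B6g7 (0.20 ± 0.14), and geminin 211, 262 and 253 in NOD and 351, 248 and 297 in B6g7 (-0.30 ± 0.17). Lig1 read 164, 201 and 243 in NOD and 243, 211 and 266 in B6g7 (-0.26 ± 0.19), lower in NOD in 3 of 3 same-numbered pairs.

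In wild-type cells, with 2 arrays a group, geminin read 207 and 253 in NOD and 278 and 289 in B6g7 (-0.31 ± 0.20). Lig1 read 193 and 203 in NOD and 245 and 252 in B6g7 (-0.33 ± 0.23), and Rpa2 read 169 and 192 in NOD and 168 and 159.99 in B6g7 (0.13 ± 0.22). All 3 separated without overlap, Rpa2 with NOD higher by a narrow margin, as did Mcm5, Rfc1 and Rrm1 with NOD lower. The 5 lower genes compare with 14.3% of all probe sets and the 1 higher gene with 6.55%.

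**Figure D4:**
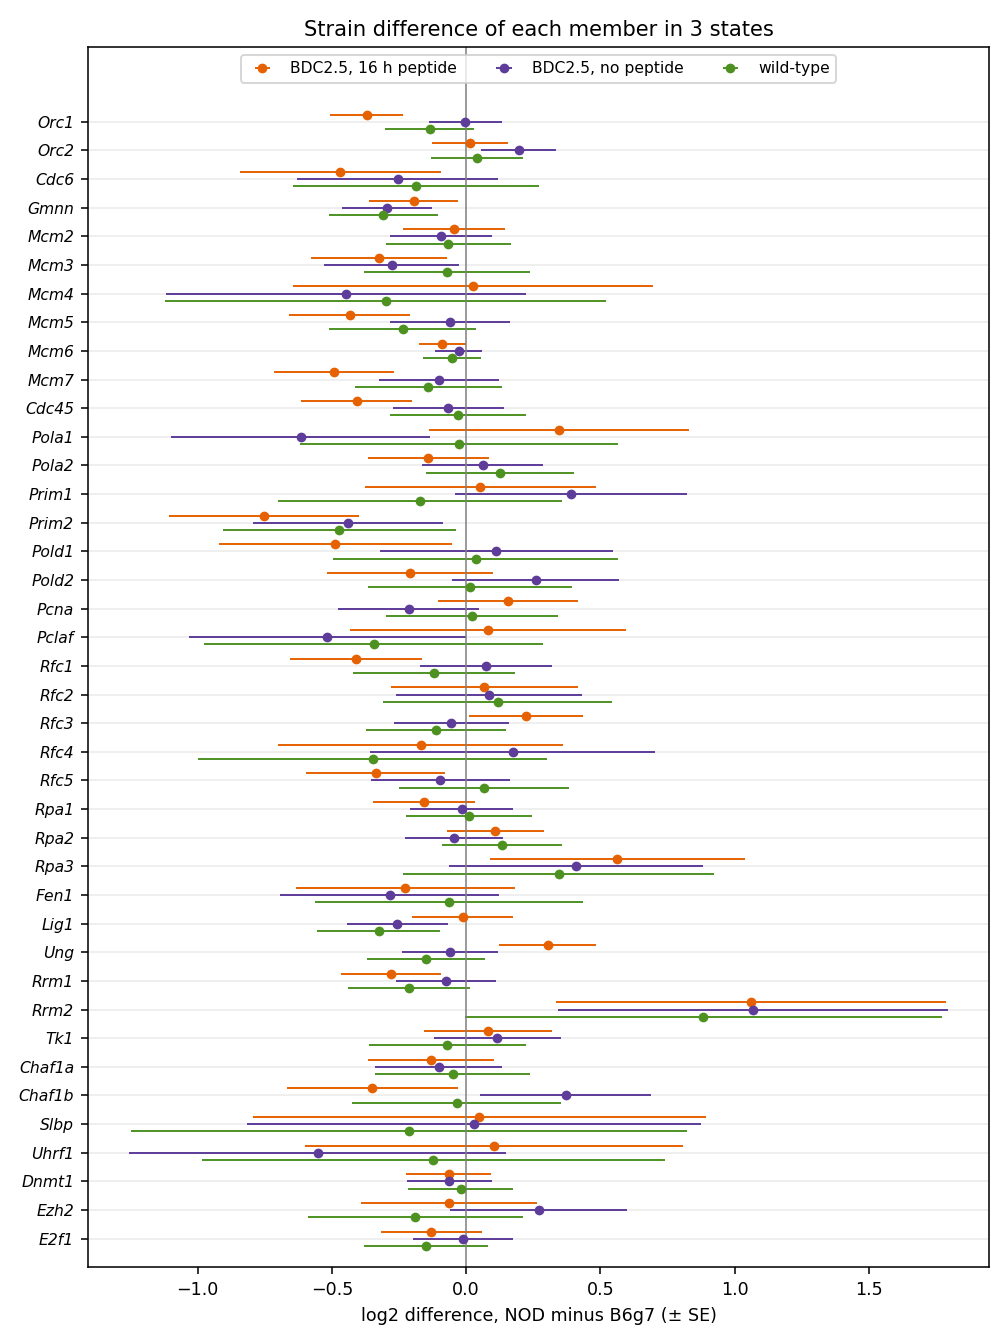
Log2 difference between NOD and B6g7 (points) with its standard error (lines) for each of the 40 genes in 3 states: BDC2.5 with 16 h of peptide, BDC2.5 without peptide, and wild-type. Rrm2 lies at 0.88 to 1.07 and Prim2 at -0.75 to -0.44 across the 3 states.

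Pclaf was the 1 gene of the list with a call by another probe set, named after its value was seen. Its dimmer probe set, with an intensity of 23.2 as the mean of its log2 values and the suffix _r_at (given where the usual rules of probe choice were dropped), read 18.7, 16.0 and 16.1 in NOD and 32.6, 26.3 and 22.1 in B6g7 with peptide. Without peptide it read 15.4, 18.5 and 18.9 in NOD and 30.3, 36.2 and 30.6 in B6g7, and in wild-type cells 17.7 and 19.4 in NOD and 33.5 and 38.0 in B6g7. Every NOD array lay below every B6g7 array. limma gave -0.88 ± 0.13 without peptide (adjusted p = 0.0115), -0.66 ± 0.13 with it (adjusted p = 0.0507) and -0.94 ± 0.16 in wild-type cells (adjusted p = 0.0545). The brightest Pclaf probe set gave -0.52 ± 0.51, 0.08 ± 0.51 and -0.35 ± 0.63 in the same order, with no call, so the probe sets do not read the gene alike. Across the 14 genes with several probe sets, 6 had signs that differed between probe sets without peptide, 7 with peptide and 5 in wild-type cells.

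**Figure D5:**
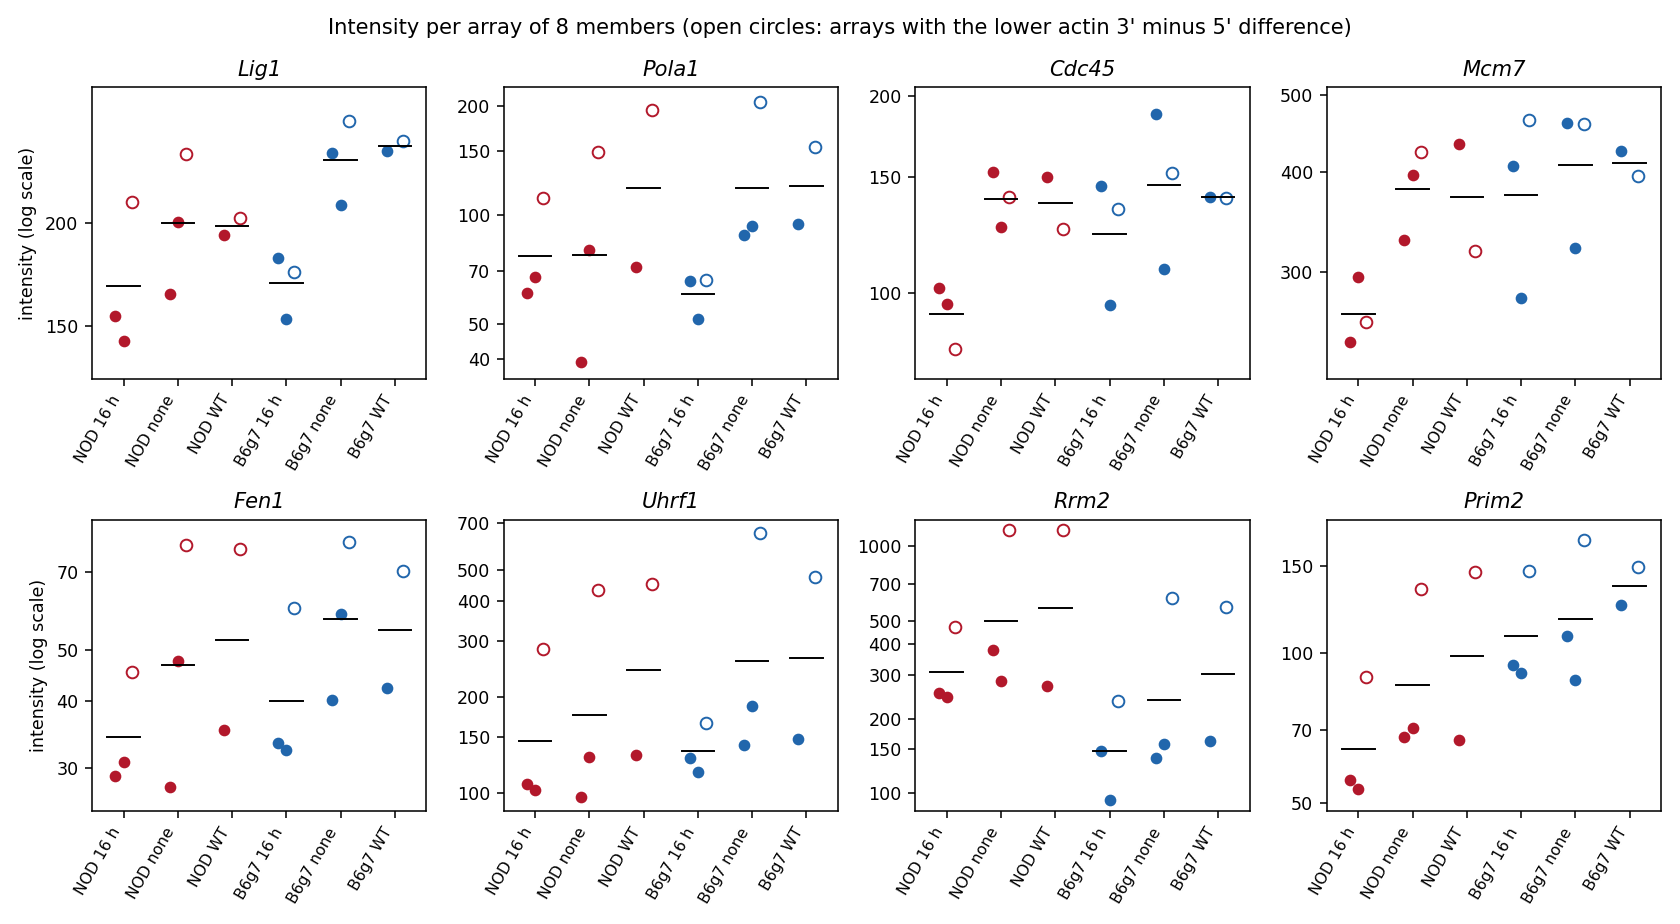
Intensity on each array (log axis) of 8 genes in the 6 groups, with NOD in red, B6g7 in blue, open circles for the 6 arrays with the lower beta-actin difference, and bars for the group's mean of log2 values. The Rrm2 and Prim2 panels show the strain difference within filled and within open circles, and Cdc45 and Mcm7 in NOD and Lig1 and Pola1 in B6g7 show peptide arrays below those without peptide.

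The transgene comparison set BDC2.5 cells without peptide beside wild-type cells of the same strain. In NOD 20 of the 40 genes were higher and 20 lower in BDC2.5 cells (median 0.004), and in B6g7 19 were higher and 21 lower (median -0.01). Of all probe sets, 39.0% were lower in BDC2.5 cells on NOD (median 0.04) and 55.8% on B6g7 (median -0.02). In B6g7, 25 of the 40 were higher with the term for the 6 arrays, 31 within those arrays and 12 without them. The same counts in NOD were 22, 25 and 22. limma called 0 of them in NOD or B6g7 (0.0564% and 0.0805% of all probe sets), and 0 had an unadjusted p under 0.05 (in NOD 1.28% of all were higher and 0.716% lower, and in B6g7 1.49% either). In NOD, Pold2 read 294, 233 and 178 in BDC2.5 cells and 250.4 and 119 in wild-type cells (0.41 ± 0.35), and Tk1 618, 509 and 389 in BDC2.5 cells and 437 and 388 in wild-type cells (0.27 ± 0.27). Pola1 read 39.1, 79.6 and 149 in BDC2.5 cells and 71.8 and 194 in wild-type cells (-0.61 ± 0.54). Groups overlapped for all 3. Mcm5 was the 1 gene without overlap in NOD, higher at 580.85, 424.35 and 426.50 in BDC2.5 cells and 424.18 and 380.20 in wild-type cells, the closest values being less than 1 unit apart (6.19% of all probe sets, and 2.52% for lower). In B6g7, where 0 genes separated (higher 4.15%, lower 6.91% of all), Pola2 read 191, 118 and 128 in BDC2.5 cells and 149 and 104 in wild-type cells (0.19 ± 0.25). Rfc2 read 615, 355 and 344 in BDC2.5 cells and 466 and 274 in wild-type cells (0.24 ± 0.39), and Ezh2 read 555, 547 and 1173 in BDC2.5 cells and 858 and 1272 in wild-type cells (-0.56 ± 0.37). Mcm6 gave -0.09 in NOD and -0.12 in B6g7. The signs of Pold2, Pola1, Pola2 and Rfc2 turned without single arrays, and without the 6 arrays 20 of the 40 genes in NOD and 13 in B6g7 had another sign. The SEs show how little 2 wild-type arrays settle.

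Other genes of the pathway gave calls where the 40 did not. Of 63 measured genes of origin firing, histone handling, nucleotide supply and S-phase control, 46 were lower with peptide in the mean (median -0.12), 45 in NOD and 42 in B6g7, and 0 were called. At an unadjusted p under 0.05 in the mean, 5 were lower and 2 higher, where 1.71% and 1.87% of all probe sets were. Asf1b, a histone H3-H4 chaperone, gave -0.46 ± 0.16 in the mean, Cdkn2d, a CDK4 and CDK6 inhibitor, -0.46 ± 0.17, and Nme1, a nucleoside diphosphate kinase, 0.36 ± 0.13 (adjusted p = 0.998 each). By strain the Asf1b value was 0.04 ± 0.22 in NOD and -0.96 ± 0.22 in B6g7. The difference between the strains, 1.01 ± 0.31, had an unadjusted p of 0.00607 and an adjusted p of 1. Cdkn2d read 547, 555 and 721 with peptide and 504, 655 and 709 without it in NOD, which overlapped. In B6g7 Cdkn2d read 423, 563 and 343 with peptide and 698, 972 and 756 without it, with no overlap. Asf1b was higher with the transgene in both strains. It read 787, 1175 and 1034 in BDC2.5/NOD without peptide, against 201 and 314 in wild-type NOD (1.97 ± 0.25, adjusted p = 0.00645). In BDC2.5/B6g7 it read 1147, 1203 and 1242, against 240.3 and 306 in wild-type B6g7 (2.14 ± 0.25, adjusted p = 0.00124). With peptide it read 1097, 859.5 and 1107 in NOD and 652, 673 and 526 in B6g7, still above the wild-type arrays.

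Hat1, the acetyltransferase of newly made histone H4, was lower in NOD in all 3 states. It read 433, 386 and 421 in BDC2.5/NOD without peptide, against 1041, 816 and 1248 in BDC2.5/B6g7 (-1.30 ± 0.19, adjusted p = 0.0089). With peptide it read 347, 376 and 325 in NOD and 998, 871 and 969 in B6g7 (-1.44 ± 0.19, adjusted p = 0.0043), and in wild-type cells 274 and 389 in NOD and 954 and 1045 in B6g7 (-1.61 ± 0.24, adjusted p = 0.016). No NOD array reached a B6g7 array in any state. The Hat1 probe set has the suffix _f_at. Cdkn1a (p21), the CDK inhibitor, gave 1.03 ± 0.27 without peptide (adjusted p = 0.334) and 1.15 ± 0.17 in the average over states (adjusted p = 0.00232), higher in NOD. Wdhd1, which ties polymerase alpha to the helicase, gave -0.79 ± 0.25 without peptide (adjusted p = 0.639). Between strains, Hat1 in the 3 states and the added average and Cdkn1a in that average were the calls among the 63 genes.

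Mitosis genes, set beside the list as the next phase of the cycle, read lower with peptide as well. Of 38 measured genes 38 were lower in the mean (median -0.25), 33 in NOD (median -0.20) and 31 in B6g7 (median -0.25), with 0 called and 6, all lower, at an unadjusted p under 0.05 in the mean (1.71% of all probe sets, of which 57.6% were lower at any p). The replication genes had 35 of 40 lower and a median of -0.19 in that mean. The difference between the lists was not tested.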

How the data were processed

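Thymocyte RNA was measured on 16 single-colour oligonucleotide arrays in 6 groups. The values are linear intensities deposited by the authors, 1 per probe set, with their scaling method not given in the labels or the file. The table holds 12488 probe sets, of which 66 controls were left out, and 10833 of the 12422 tested name 1 gene, 396 several and 1193 none, per the platform annotation given. Values were taken to log2 without a pseudocount. limma 3.58.1 in R 4.3.3 was fitted to all 16 arrays with 1 mean per group, with eBayes and an intensity trend (10 residual and 3.60 prior degrees of freedom), and Benjamini-Hochberg adjustment within each comparison. The files give no depth.

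The members and lists were chosen with earlier results of these data known. Values on every array are given for members called in any comparison, for the 2 with the largest positive and the 2 with the largest negative moderated t in each, for the member with the largest absolute t of each role group in the mean peptide response, and for Pcna, Mcm2, Mcm5, E2f1 and Rrm2. Prim2, Fen1 and Uhrf1 were chosen after their values were seen. Of other pathway genes, those called in any comparison are given, with the 3 of largest absolute t in the mean peptide response and in the strain difference without peptide.

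The labels number the arrays of each group and do not say what a number shares. Deviations of same-numbered arrays from their group means correlated over probe sets by 0.249 to 0.793 in the peptide comparisons. In the strain comparisons of BDC2.5 cells they correlated by 0.165 to 0.842. These correlations cannot show that same-numbered arrays are pairs. In the BDC2.5 groups the arrays that stood apart all bear the same number, and deviations from a group mean cancel within the group. A shared offset of those arrays could thus make the correlation positive for every number. Same-numbered arrays were taken as pairs by assumption. In the transgene comparisons the correlations ran from -0.50 to 0.69. The fit was run on simulated data with known changes, larger than the fitted differences of the listed genes, and with noise drawn independently for each array. That run does not show what the fit can detect at the sizes seen here, or with arrays that stand apart. Promoter sequences are from the RefSeq table of GRCm38.p6.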

Additional observations from a re-analysis of the deposited data

How the results depend on the processing

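The alternatives were a replicate block over all groups or within each strain (which cannot estimate strain differences), leaving out the 6 arrays, a term for them, those 6 alone, a filter on dim probe sets, log2(value + 32), quantile normalization, every probe set of a gene, only the groups compared, no intensity trend, and leaving out each array. The number of called genes stayed 0 except as follows. It was 1 with peptide in the strain difference with the term for the 6 arrays (Prim2) and 1 without peptide with every probe set (Pclaf). In the added average over states it was 1 with the replicate block, 2 without the 6 arrays, 2 with the term and 1 with every probe set. The replicate block changed no other call. Leaving out single arrays moved the median peptide response in B6g7 between -0.29 and -0.047 and the median transgene difference in B6g7 between -0.077 and 0.12, and the transgene median within the 6 arrays was 0.18. Without the 6 arrays the sign of 5 to 9 of the 40 genes turned in each peptide and strain comparison, of 13 in the transgene difference in B6g7 and of 20 in that in NOD, none of them past the test. Among the differences named by rule these were Mcm6 (peptide in NOD -0.024, transgene in B6g7 0.0069, transgene in NOD 0.021) and Pcna (mean peptide response 0.00022). Signs also turned when single arrays were left out. The ranges were -0.053 to 0.11 for Mcm6 with peptide in NOD, -0.24 to 0.0061 for Mcm6, -0.070 to 0.45 for Pola2 and -0.14 to 0.62 for Rfc2 with the transgene in B6g7. For the transgene in NOD they were -0.12 to 0.94 for Pold2 and -1.33 to 0.11 for Pola1, and for Rrm2 between wild-type strains -0.17 to 1.94. The cause was not tested. The 2 wild-type arrays a strain and the within-group spread limit what can be detected, and Mcm6, Orc1 and Fen1 are dim.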

Other observations

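Among the mitosis genes set beside the replication list, Kif23 and Pttg1 separated the strains in opposite directions, and both were named after their values were seen. Kif23, a kinesin of the central spindle, had a mean intensity (mean of log2 values, given on the linear scale) of 264 in BDC2.5/NOD and 779 in BDC2.5/B6g7 without peptide, a log2 difference of -1.56 ± 0.29 (limma adjusted p = 0.0442). With 16 h of peptide it was 252 in NOD and 694 in B6g7 (-1.46 ± 0.29, limma adjusted p = 0.0425), and in wild-type cells 291 in NOD and 787 in B6g7 (-1.43 ± 0.36, limma adjusted p = 0.343). Pttg1, securin, which holds separase inactive until anaphase, was 522 in BDC2.5/NOD and 222 in BDC2.5/B6g7 without peptide (1.24 ± 0.17, limma adjusted p = 0.00644). With peptide it was 424 in NOD and 244 in B6g7 (0.80 ± 0.17, limma adjusted p = 0.0727), and in wild-type cells 374 in NOD and 196 in B6g7 (0.93 ± 0.21, limma adjusted p = 0.214). For both genes, every NOD array lay on 1 side of every B6g7 array in each of the 3 states.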
